A study of Drosophila melanogaster with 4 samples.

Results

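The genes described here are 10 regulators of sexual identity in Drosophila melanogaster: Sxl, tra, tra2, dsx, fru, ix, snf, Phf7, otu and ovo. They were chosen by name, and their FlyBase symbols were matched to the gene IDs of the count files, where all 10 were found among 17559 IDs. All 10 also passed the filter on low counts that left 10854 genes for testing. Their transcripts were measured in poly(A) RNA from testes of 2 genotypes, with 2 libraries each. The first was a germline knockdown by RNA interference of Caf40, whose product belongs to the CCR4-NOT complex that shortens poly(A) tails, in males of the genotype Caf40RNAi(BL67987)/nosGAL4. The nos-Gal4 driver acts in early germ cells, and per the study's methods Dicer-2 was co-expressed from UAS in the driver strains. These males were kept at 25 °C for 3 days and then at 29 °C, and were dissected 0 to 2 days after eclosion. The second was the bam mutant, bam1/bam86, in which spermatogonia overproliferate and do not become spermatocytes. The mutant males carried no heat-shock construct and, per the study's methods, carried CyO. They grew at 22 °C up to mid and late pupal stages, spent 30 min at 37 °C, were returned to 25 °C and were dissected 48 h after the heat shock. The labels give no age for the mutant males. The study's methods give an age of 0 to 2 days for the dissected males without setting the genotypes apart. Each library came from 150 pairs of testes dissected in batches of 50, and the study's methods include the seminal vesicle in the tissue. The comparison addressed here is how the transcripts of the sex determination genes in Caf40 knockdown testes stood against those in bam mutant testes. The genotype and the 48 h are those of the sample labels, while the names of the deposited files and of the columns of the authors' normalised table call these libraries WT and 0 h. The labels were followed, and the study's methods give the same genotype and the same 48 h. Why the other names differ was not settled. Genotype, rearing temperature, heat shock and strain separated the libraries in the same way and cannot be told apart.

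In Drosophila, sex is set by the number of X chromosomes. In females the RNA-binding protein Sxl is made and directs the splicing of its own transcript and of tra, and Tra with its partner Tra2 directs the splicing of dsx and fru into female forms. In males no functional Sxl or Tra is made, and dsx and fru are spliced into male forms. Germ cells take a sexual identity both from their own chromosomes and from the sex of the surrounding soma. In the female germ line Sxl, snf, otu and ovo act for female identity, and in the male germ line the PHD-finger protein Phf7 acts for male identity. Counts per gene pool all transcripts of a gene, so male and female splice forms are added together in every value below.

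The libraries held 30411385 and 26984758 gene counts in the Caf40 knockdown and 118209171 and 95125694 in the bam mutant, whose mean depth was 3.72 times that of the knockdown. Levels are given in CPM, counts divided by a library total that was scaled by edgeR's default method (TMM, trimmed mean of M-values), and fold changes are log2 values of the knockdown over the bam mutant. Calls rest on the quasi-likelihood test of edgeR, at a threshold of 0.05 on p-values adjusted by Benjamini-Hochberg over all genes tested. As the check of the knockdown, Caf40 (annotated as Rcd-1) stood at 13.5 and 16.2 CPM in the knockdown and at 203.8 and 207.4 CPM in the bam mutant, with a log2 fold change of -3.80 (adjusted p 2.09e-05). Nothing in the labels says that the libraries of a genotype came from separate crosses, so the p-values measure only the spread between these libraries. The knockdown libraries differed more from each other (SD of the log2 difference 0.64 over all genes tested) than the bam mutant libraries did (0.17). Knockdown replicate 2 held spermatid transcripts (12 genes, 136.0 CPM in sum, against 4.39 CPM in replicate 1 and 9.67 and 11.3 CPM in the bam mutant), and knockdown replicate 1 held accessory gland transcripts (12 genes, 329.6 CPM in sum, against 46.96 CPM in replicate 2 and 70.5 and 53.03 CPM in the bam mutant). Of 10 muscle markers 8 were called lower and 0 higher (median -0.78 on the log2 scale), and of 9 spermatocyte markers tested 4 were called higher and 1 lower, with a median of 0.10.

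In the Caf40 knockdown, otu, ovo and Phf7 were called higher and dsx, fru and Sxl were called lower than in the bam mutant. The largest increase was in otu, 2.57-fold, and the largest decrease was in dsx, 3.02-fold. The splicing regulators tra, tra2 and snf and the dsx cofactor ix were not called. The 6 of 10 genes called (60%) stand beside 63.7% of all genes tested, and the 3 higher and 3 lower genes stand beside 30.7% and 33.0%, so the share of these genes called was close to that of all genes. In 9 of the 10 genes the knockdown and bam mutant libraries did not overlap, as in 83.4% of all genes tested. The median log2 fold change of the 10 genes was -0.04, beside 0.03 over all genes tested.

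The directions of the smaller changes rested on how the libraries were scaled. All 12 germline marker genes matched, such as rhi (log2 fold change 1.15), spn-E (1.10) and AGO3 (0.91), were called higher in the knockdown. The others were aub, krimp, tej, mael, zpg, tud, vls, qin and nanos, while vas was listed but not matched. Whether these genes stand for the germ line as a whole was not tested, so values scaled to them are not values per germ cell. Scaling the libraries to that list in place of TMM shifted the log2 fold change of the median gene by -0.68. Under that scaling otu remained called higher, at 0.67, and dsx, fru and Sxl remained called lower, at -2.28, -1.49 and -1.13. Under it ovo was at 0.24 and no longer called, and Phf7 changed sign to -0.36. The values below are under TMM unless the scaling is named.

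**Figure D1:**
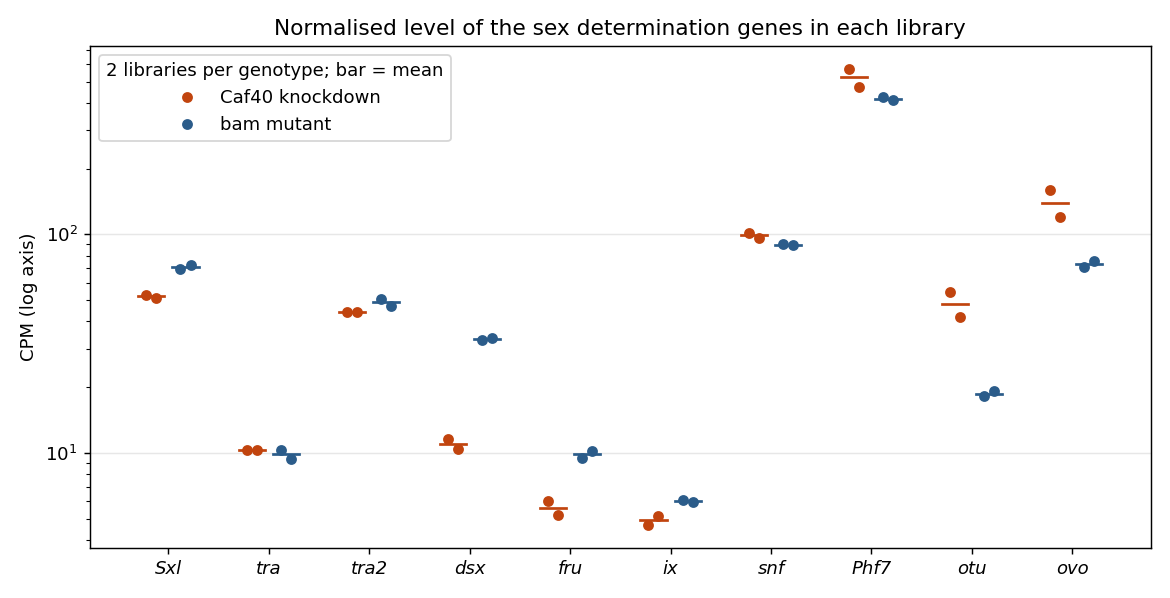
Normalised level of the 10 sex determination genes in CPM on a log axis, with 1 point per library and a bar at the mean of each genotype (Caf40 knockdown left, bam mutant right, 2 libraries each). The otu and ovo points of the knockdown lie above those of the bam mutant, the dsx and fru points lie below, and the genotypes overlap in tra alone.

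The regulators at the top of the pathway are Sxl and snf, which encodes a protein of the U1 and U2 small nuclear ribonucleoproteins needed for Sxl to splice its own transcript. Sxl (FBgn0264270) lies on chromosome X, from 7074550 to 7098053 on the minus strand of BDGP6, with 25 annotated transcripts. It was at 52.98 and 51.2 CPM in the Caf40 knockdown and at 69.8 and 72.6 CPM in the bam mutant. Both knockdown libraries were below both bam mutant libraries, by more than either pair of replicates differed. The log2 fold change was -0.45 with a 95% confidence interval from -0.59 to -0.31 (SE 0.06, adjusted p 0.00139), which is 73.2% of the bam mutant level. Sxl was called lower under each of the 14 alternatives, with -1.13 at the low end when scaled to the germline list and -0.30 at the high end with upper quartile scaling. Of its annotated exon length 1.27% is shared with other genes on the same strand. Set against the germline markers, its log2 CPM was 2.39 and 2.30 below their mean in the knockdown libraries, against 1.26 and 1.16 below in the bam mutant libraries. Set against the 11 somatic cyst and hub markers described below, it was higher in the knockdown. It was 2.49 and 2.49 above their mean there, against 1.68 and 1.73 above in the bam mutant libraries.

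snf (FBgn0003449, chromosome X, 5309242 to 5310501, plus strand) was the second most abundant of the 10 genes per length. It was at 101.9 and 96.2 CPM in the knockdown and at 90.3 and 89.2 CPM in the bam mutant. The libraries did not overlap, but the difference was small, a log2 fold change of 0.14 (interval 0.01 to 0.28) that was not called (adjusted p 0.0651). It was called higher with upper quartile scaling (0.29, adjusted p 9.76e-04) and changed sign under scaling to the germline list (-0.54). The ratio of snf to Sxl was 1.92 and 1.88 in the knockdown libraries and 1.29 and 1.23 in the bam mutant libraries, a measure that does not depend on the scaling.

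The next step of the pathway is tra and tra2. tra encodes an arginine- and serine-rich splicing regulator made in functional form in females, and tra2 encodes its RNA-binding partner, which is present in both sexes and is needed in the male germ line for spermatogenesis. tra (FBgn0003741, chromosome 3L, 16590059 to 16591050, minus strand) was at 10.34 and 10.30 CPM in the knockdown and at 10.31 and 9.41 CPM in the bam mutant. It was the single gene of the 10 whose libraries overlapped between genotypes. Its log2 fold change was 0.07 with an interval from -0.26 to 0.39 (adjusted p 0.671), which still allows a difference of up to 1.31-fold. tra2 (FBgn0003742, chromosome 2R, 14602004 to 14604337, minus strand) was at 44.2 and 44.1 CPM in the knockdown and at 50.8 and 47.1 CPM in the bam mutant. The knockdown libraries were the lower ones, but at a log2 fold change of -0.15 (interval -0.32 to 0.02) tra2 was not called (adjusted p 0.105). In every library tra2 stood above tra, by 4.27 and 4.28 times in CPM in the knockdown and by 4.92 and 4.999 times in the bam mutant. Part of this reflects length, as the exons of tra2 span 1844 bp and those of tra 862 bp. Per kilobase of exon tra2 was at 23.95 and 23.90 CPM in the knockdown, against 11.99 and 11.95 for tra. In the bam mutant these values were 27.5 and 25.5 for tra2 and 11.96 and 10.9 for tra. Under scaling to the germline list both were called lower, at -0.61 for tra and -0.83 for tra2.

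The genes at the end of the pathway are dsx and fru, which encode transcription factors with male and female forms, and ix, which encodes a Mediator subunit that acts with the female form of Dsx. In the testis Dsx is known from the somatic cyst and hub cells. dsx (FBgn0000504, chromosome 3R, 7924323 to 7967408, minus strand) was at 11.6 and 10.4 CPM in the knockdown and at 32.7 and 33.6 CPM in the bam mutant. Both knockdown libraries were far below the bam mutant libraries, at 33.1% of their level in the fit, and the replicates of each genotype lay close together. The log2 fold change was -1.59 with an interval from -1.80 to -1.39 (SE 0.08, adjusted p 7.53e-05), and 11.6% of all genes tested fell by more. The alternatives gave values from -2.28 to -1.42, all called lower. The least negative of these came from unstranded counts, and dsx was the gene of the 10 with the largest share of reads on the opposite strand: 35.7% and 29.8% of its stranded counts in the knockdown and 11.5% and 10.7% in the bam mutant. In CPM the opposite-strand reads were at 6.41 and 4.41 in the knockdown and at 4.24 and 4.05 in the bam mutant. Of the annotated exon length of dsx, 169 bp overlap exons of lds on the other strand.

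fru (FBgn0004652, chromosome 3R, 18414273 to 18545586, minus strand), best known for its male form in the neurons of courtship, was at 6.05 and 5.202 CPM in the knockdown and at 9.498 and 10.2 CPM in the bam mutant. The genotypes did not overlap. The log2 fold change was -0.81 with an interval from -1.21 to -0.41 (SE 0.16, adjusted p 0.00731), or 57.1% of the bam mutant level. It was called lower under each of the 14 alternatives, with the highest adjusted p, 0.0455, in the fit without bam mutant replicate 2. fru fell less than dsx did in point estimate, and the ratio of dsx to fru was 1.91 and 2.00 in the knockdown libraries against 3.45 and 3.29 in the bam mutant libraries. ix (FBgn0001276, chromosome 2R, 11359437 to 11360163, minus strand) had the lowest CPM of the 10 genes, 4.69 and 5.13 in the knockdown and 6.09 and 5.97 in the bam mutant. Its counts were 141 and 149 in the knockdown and 690 and 556 in the bam mutant. The difference was not called, with a log2 fold change of -0.30 and an interval from -0.73 to 0.13 (adjusted p 0.178), and it was called lower only under scaling to the germline list, of the 14 alternatives (-0.97).

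The fall of dsx and fru stood beside a fall of somatic markers. Of 11 somatic cyst and hub markers, 9 were called lower in the knockdown and none higher (1 with upper quartile scaling or library size alone). The median of their log2 fold changes was -1.20, and upd1 and zfh1 were not called. None of the list was at 3 counts or fewer in every library. The summed level of the list was 212.6 and 179.2 CPM in the knockdown and 482.6 and 489.5 CPM in the bam mutant. Six4 (-3.13), eya (-1.87) and Fas3 (-1.77) had the largest changes of this list. Taken relative to the mean log2 CPM of the list in the same library, dsx was at 0.30 and 0.19 in the knockdown and at 0.58 and 0.62 in the bam mutant, and fru was at -0.64 and -0.81 in the knockdown and at -1.20 and -1.10 in the bam mutant. Relative to these markers dsx was therefore slightly lower in the knockdown and fru slightly higher. In RNA of whole testes fewer somatic cells and less RNA per somatic cell cannot be told apart. Of the 6 neuron markers tested, nSyb (-4.41) and Csp (-0.98) were called lower and Rdl (2.37, from at most 9 counts a library) higher, while elav, which defines neurons, was at 11.2 and 12.2 CPM in the knockdown and at 11.2 and 11.05 CPM in the bam mutant. The summed level of the 7 neuron markers matched was 192.1 and 174.9 CPM in the knockdown and 388.3 and 390.01 CPM in the bam mutant. Their median CPM differed less, at 0.80 and 0.90 in the knockdown and 1.05 and 1.03 in the bam mutant. The median log2 fold change of the 6 tested was -0.11, and 3 of them were not called. The part of the cyst, hub and neuron markers in the values of dsx and fru was not tested.

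**Figure D2:**
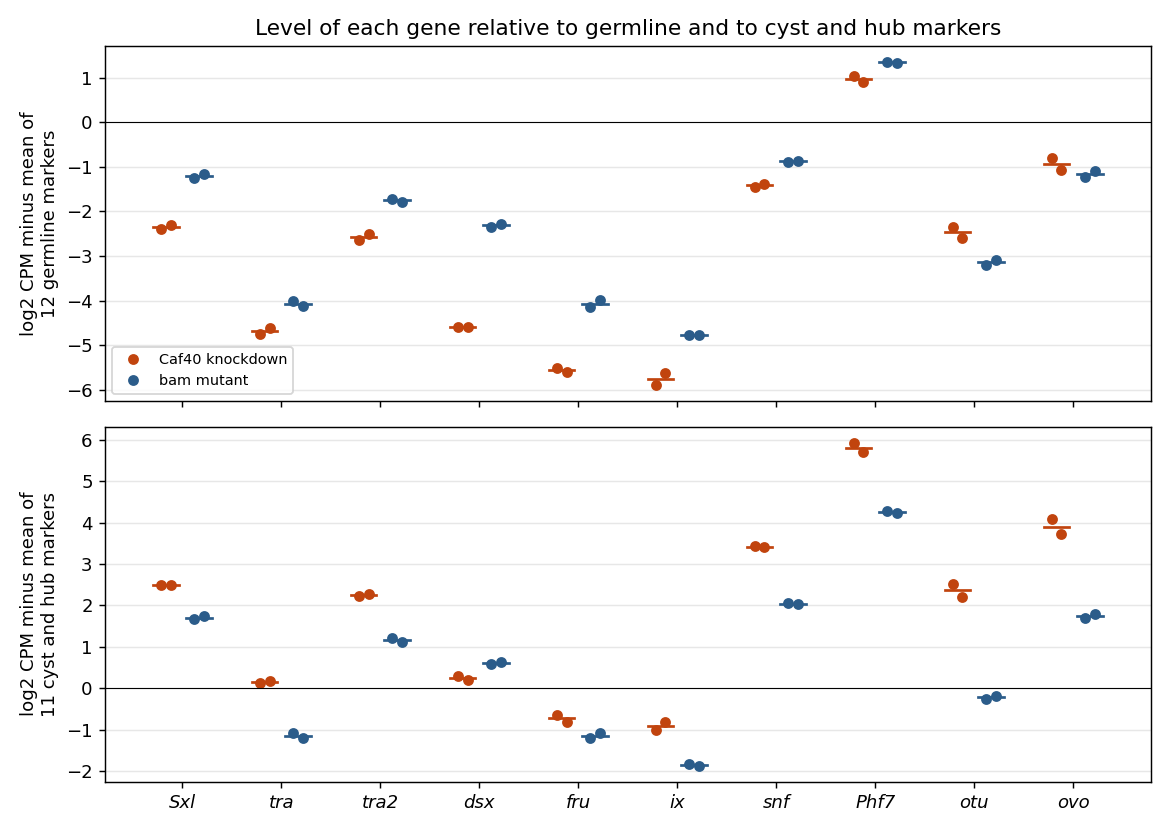
Level of each gene relative to the mean log2 CPM of 12 germline markers (upper panel) and of 11 cyst and hub markers (lower panel), with 1 point per library and a bar at the mean of each genotype (Caf40 knockdown left, bam mutant right). Relative to the germline markers otu and, by a small margin, ovo were higher in both knockdown libraries than in both bam mutant libraries. All the other genes were lower in both. Relative to the cyst and hub markers dsx was at 0.30 and 0.19 in the knockdown and at 0.58 and 0.62 in the bam mutant. On that scale all the other genes were higher in both knockdown libraries than in both bam mutant libraries.

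In the germ line ovo encodes a zinc-finger transcription factor that is known in the ovary to activate otu, and otu encodes a deubiquitinase needed by female germ cells. The same gene, ovo, also gives rise to the epidermal shavenbaby transcripts, which gene counts do not separate. ovo (FBgn0003028, chromosome X, 5048273 to 5070929, plus strand) was at 159.7 and 119.6 CPM in the knockdown and at 70.9 and 75.7 CPM in the bam mutant. Both knockdown libraries were higher than both bam mutant libraries, although they differed from each other by 0.42 on the log2 scale. The log2 fold change was 0.93 with an interval from 0.58 to 1.28 (SE 0.14, adjusted p 0.00256), a 1.91-fold increase. ovo was called higher under 13 of the 14 alternatives, and it was not called under scaling to the germline list (0.24, adjusted p 0.0957).

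otu (FBgn0003023, chromosome X, 8485008 to 8489535, minus strand) was at 54.2 and 41.8 CPM in the knockdown and at 18.3 and 19.1 CPM in the bam mutant. Even the lower of the knockdown libraries was far above both bam mutant libraries, although the knockdown libraries differed from each other by 0.37 on the log2 scale. The log2 fold change was 1.36 with an interval from 1.03 to 1.69 (SE 0.13, adjusted p 5.26e-04), and 10.3% of all genes tested rose by more. The call held under each of the 14 alternatives, with values from 0.67 to 1.54. Scaled to the germline list, otu was 0.67 higher with an interval from 0.42 to 0.93 (adjusted p 0.00252), and it was the single gene of the 10 called higher there, beside 706 of 10854 genes in all. The ratio of otu to ovo, which does not depend on the scaling, was 0.34 and 0.35 in the knockdown libraries and 0.26 and 0.25 in the bam mutant libraries.

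Phf7 (FBgn0031091, chromosome X, 20160355 to 20165830, minus strand), the histone reader of the male germ line, was the most abundant of the 10 genes in every library and made up 56.2% and 55.2% of their summed CPM in the knockdown and 54.3% and 53.04% in the bam mutant. It was at 572.6 and 473.2 CPM in the knockdown and at 425.5 and 409.8 CPM in the bam mutant. The genotypes did not overlap, but the knockdown replicates were further apart than the lower of them was from the bam mutant. The log2 fold change was 0.32 with an interval from 0.06 to 0.59 (SE 0.10, adjusted p 0.0392), a 1.25-fold increase. This call had the highest adjusted p of the 6. It was lost without bam mutant replicate 1 (0.26, adjusted p 0.120), without bam mutant replicate 2 (0.20, adjusted p 0.195) and with no filter beyond 1 count (0.17, adjusted p 0.112). Without knockdown replicate 1 it was still called, but at 0.14 (adjusted p 0.0477). When scaled to the germline list, Phf7 was called lower, at -0.36 (interval -0.51 to -0.21). The ratio of Phf7 to ovo was 3.58 and 3.96 in the knockdown libraries and 6.002 and 5.42 in the bam mutant libraries, and that of Phf7 to Sxl was 10.8 and 9.25 in the knockdown libraries and 6.10 and 5.65 in the bam mutant libraries. The rise of otu, ovo and Phf7 went with that of the germline markers, of which all 12 were called higher, with a summed level of 3857 and 3493 CPM in the knockdown and of 2340 and 2292 CPM in the bam mutant and none of them at or near 0. The part of that rise in the values of these genes was not tested beyond the scaling to the list.

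**Figure D3:**
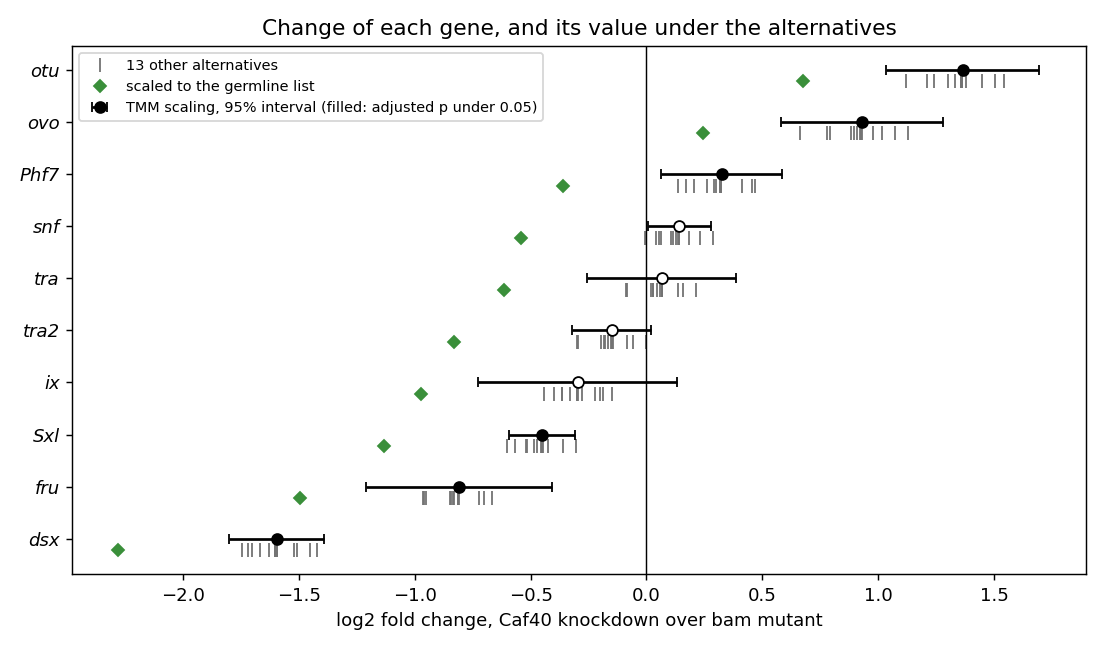
Log2 fold change of the Caf40 knockdown over the bam mutant for each gene, with its 95% confidence interval under TMM scaling (filled where the adjusted p was under 0.05), its value under scaling to the germline list (diamond) and its values under the 13 other alternatives (ticks). The diamonds lie to the left of the TMM values for all 10 genes, and otu and ovo alone have diamonds above 0.

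Levels of different genes were compared per kilobase of annotated exon. On this scale Phf7 came first, at 228.6 and 188.9 CPM per kb in the knockdown and 169.9 and 163.6 CPM per kb in the bam mutant. snf followed at 122.0 and 115.2 CPM per kb in the knockdown and 108.1 and 106.9 CPM per kb in the bam mutant. In the bam mutant the order below these was tra2 (27.5 and 25.5 CPM per kb), tra (11.96 and 10.9), ovo (9.58 and 10.2), ix (8.38 and 8.21), Sxl (7.59 and 7.90), otu (5.34 and 5.59), dsx (3.57 and 3.67) and fru (0.52 and 0.55). No neighbours in that order overlapped in the bam mutant libraries. In the knockdown ovo (21.6 and 16.2 CPM per kb) and otu (15.9 and 12.2) stood above tra (11.99 and 11.95), and ix (6.45 and 7.06) and Sxl (5.76 and 5.57) followed, with dsx (1.26 and 1.14) and fru (0.33 and 0.28) last. There tra2 (23.95 and 23.90) was above ovo in both libraries, and otu did not overlap ovo although 15.9 and 16.2 lay close together. The union of exons is longest for fru, at 18433 bp, which lowers its value. With the longest transcript in place of the union fru was at 0.72 and 0.62 CPM per kb in the knockdown and 1.13 and 1.22 CPM per kb in the bam mutant, still the lowest of the 10. With that length Sxl, at 8.88 and 8.58 CPM per kb in the knockdown and 11.7 and 12.2 CPM per kb in the bam mutant, stood above ix in both genotypes, so its place in the order rests on the length used. Over the 10646 genes with an annotated length, 3.34% stood above Phf7 and 6.09% above snf in mean level per kb, while 87.3% stood above fru.

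Of the 10 genes, 5 lie on the X chromosome, and these were Sxl, snf, Phf7, otu and ovo. Among them 3 were called higher and 1 lower, and among the 5 autosomal genes none was called higher and 2 were called lower. Over all genes tested, 26.7% of X-linked genes were called higher and 34.2% lower, against 31.6% and 32.5% of genes on the major autosome arms. The median log2 fold change was -0.02 on the X and 0.06 on the major autosome arms.

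Genes that act with the 10 were taken from lists of known partners and targets. The first list holds cofactors of Sxl splicing, most of them subunits of the complex that writes m6A marks on RNA. Of 12 genes, 9 were called higher and 1 lower, with a median log2 fold change of 0.46, which turned to -0.22 with 0 higher and 8 lower under scaling to the germline list. Hakai was at 86.0 and 84.7 CPM in the knockdown and at 53.2 and 54.98 CPM in the bam mutant (log2 fold change 0.66), and vir was at 170.2 and 159.7 CPM in the knockdown and at 103.98 and 106.5 CPM in the bam mutant (0.65). The one lower gene was Flacc, another subunit of the same complex, at 25.7 and 27.4 CPM in the knockdown and at 60.2 and 66.9 CPM in the bam mutant. Its log2 fold change was -1.26 (SE 0.08, adjusted p 1.47e-04) and it was called lower under the germline scaling as well (-1.94).

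The second list holds genes that act on Sxl in the early embryo through the count of X chromosomes. Of 9 genes 8 were matched and 5 tested, and sc, run and dpn had at most 5 counts in any library. gro, which encodes a corepressor, was at 411.2 and 410.7 CPM in the knockdown and at 329.4 and 326.4 CPM in the bam mutant (log2 fold change 0.33), and her was at 24.6 and 26.3 CPM in the knockdown and at 22.2 and 21.8 CPM in the bam mutant (0.21), and both were called higher but turned negative under scaling to the germline list. emc, which encodes an inhibitor of helix-loop-helix factors, was at 28.1 and 21.9 CPM in the knockdown and at 71.4 and 75.96 CPM in the bam mutant, and was called lower (-1.56, adjusted p 2.80e-04).

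The splicing factors known to act with Tra and Tra2 showed little movement as a group. Of 7 matched of 9, none was called higher and 2 were called lower, with a median of -0.01. The 4 other scalings moved these counts to between 0 and 4 higher and between 1 and 7 lower, with medians of 0.13 with upper quartile scaling, 0.08 with library size alone and -0.69 for the germline list. Among the lower genes was SC35, at 126.6 and 115.3 CPM in the knockdown and at 141.2 and 146.02 CPM in the bam mutant (log2 fold change -0.25, adjusted p 0.0204).

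Dosage compensation raises the output of the single X in males, and Sxl blocks it in females by repressing msl-2. Of 8 genes of this process 3 were called higher and 2 lower, with a median of 0.05. The 4 other scalings gave 1 to 5 higher and 1 to 7 lower, with a median of -0.63 for the germline list. msl-2, the target of Sxl, was at 19.9 and 21.05 CPM in the knockdown and at 25.7 and 26.7 CPM in the bam mutant, and was called lower (log2 fold change -0.35, SE 0.07, adjusted p 0.00722). The noncoding RNA lncRNA:roX1, which marks the X together with the protein complex, was at 70.4 and 66.3 CPM in the knockdown and at 143.9 and 141.01 CPM in the bam mutant (-1.06, adjusted p 7.87e-05). mof, the acetyltransferase of the complex, moved the other way, at 110.3 and 99.4 CPM in the knockdown and at 50.2 and 50.6 CPM in the bam mutant (1.06, adjusted p 1.33e-04). These opposite calls for lncRNA:roX1 and mof were also found under the germline scaling, at -1.74 and 0.37. msl-3 was called higher at 0.42 and turned to -0.27 there.

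Of 12 regulators of germline sex tested 8 were called higher and 1 lower, with a median of 0.60, which was -0.08 under scaling to the germline list. stil (log2 fold change 0.90), which is needed in the female germ line, bgcn (0.89), the partner of bam, and CG15930 (0.84), listed in RefSeq under the synonym Tdrd5l, had the largest increases. CG15930 was at 564.7 and 497.02 CPM in the knockdown and at 303.5 and 291.3 CPM in the bam mutant. Under the germline scaling stil, bgcn and CG15930 remained called higher, at 0.22, 0.21 and 0.15, and 5 genes were called lower, of which mei-P26 (-0.15) and Rbfox1 (-0.31) had been called higher under TMM (0.53 and 0.37). The translational repressor nanos, a target of Sxl in the female germ line, was at 459.8 and 428.8 CPM in the knockdown and at 279.3 and 275.8 CPM in the bam mutant (0.68), and was at -0.0026 under the germline scaling. It is also a germline marker here, and the driver in the knockdown is built on the same gene. The one lower gene, named after its value was seen, was Stat92E (-0.59), the transcription factor of the JAK-STAT pathway through which the male soma acts on germ cells. In the same list upd1 was not called (0.0070). There chinmo was called higher (0.66), and it was at -0.016 under the germline scaling. The activity of the pathway was not tested.

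Of 7 tested targets and partners of dsx and fru, 5 were called lower, 1 (her) was called higher and Yp2 was not called. The median was -1.12, below 0 under the 4 other scalings too, and beside it the median of the cyst and hub markers was -1.20, with 9 of 11 called lower. The part of those markers in this list's values was not tested. bab1 was at 1.60 and 1.65 CPM in the knockdown and at 4.29 and 5.35 CPM in the bam mutant (log2 fold change -1.57), and had more opposite-strand counts than its own in the knockdown (163 and 245, against 48 and 48). bab2, its paralog, was at 12.1 and 9.58 CPM in the knockdown and at 29.1 and 31.6 CPM in the bam mutant (-1.49). retn, a transcription factor with a role in courtship behaviour, was at 35.96 and 33.3 CPM in the knockdown and at 83.98 and 85.7 CPM in the bam mutant (-1.29). Of the yolk protein genes, the classic targets of Dsx in the fat body, Yp3 was at 13.5 and 11.2 CPM in the knockdown and at 25.2 and 26.5 CPM in the bam mutant (-1.07, adjusted p 6.34e-04). Yp1 had 0 and 0 counts in the knockdown and 3 and 1 in the bam mutant, and Yp2 had 8 and 4 counts in the knockdown and 24 and 16 in the bam mutant. Of the 6 fat body markers tested, 2 were called higher, Lsp2 (1.70) and Fbp1 (1.19), Yp3 was the 1 called lower, and 3 were not called (Fbp2, apolpp and Yp2), with a median of 0.06. When scaled to the germline list, 0 were called higher and 2 lower, and Lsp2 was at 1.01 (adjusted p 0.0701) and Fbp1 at 0.50 (adjusted p 0.287). The 3 DMRT paralogs of dsx, dmrt11E, dmrt93B and dmrt99B, had at most 7 counts in any library and were not tested.

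**Figure D4:**
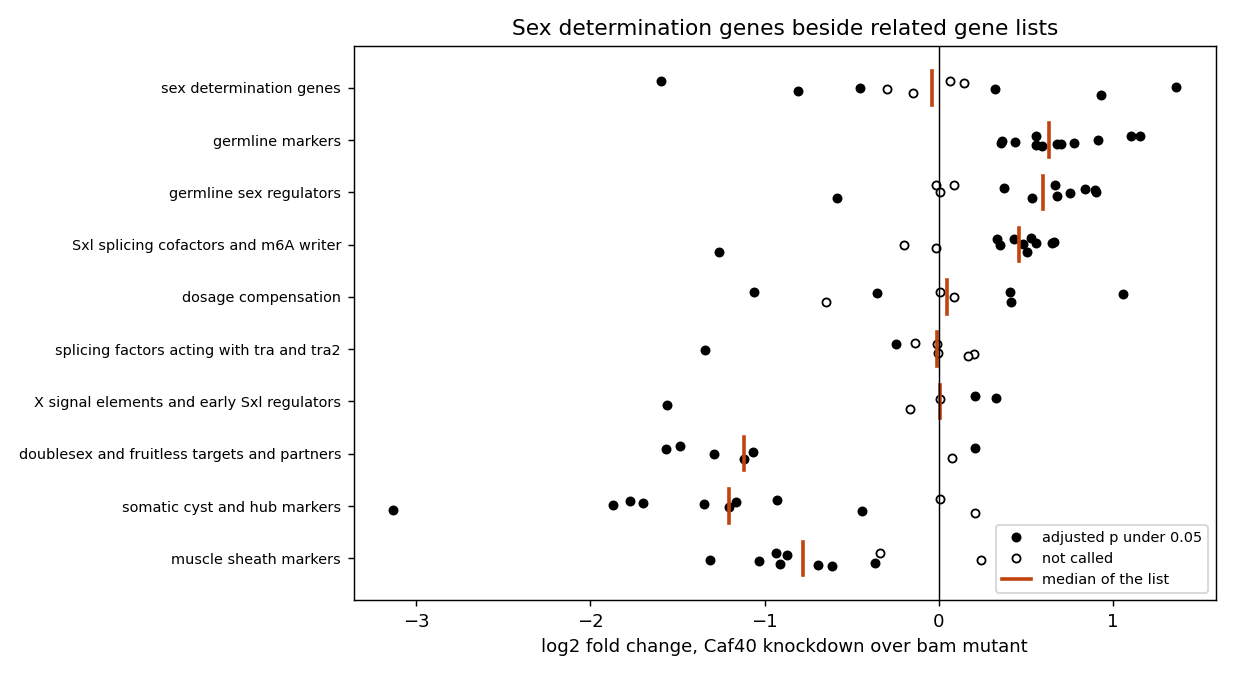
Log2 fold change of each tested gene in the sex determination genes and in 9 related lists, with filled points where the adjusted p was under 0.05, open points where it was not, and a bar at the median of each list. The sex determination genes spread from -1.59 to 1.36 around a median of -0.04, while the germline markers lie above 0 and most cyst and hub markers lie below 0.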

How the data were processed

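Read pairs were trimmed with Trim Galore and aligned by the authors to the dm6 genome with STAR, and the deposited files hold raw counts per gene, unstranded and for each strand. Tool versions and the annotation release were not given in the sources used here. The counts on the strand that the directional kit reads were used, since the opposite strand held 2.47% to 2.54% of the stranded gene counts. The 4 STAR summary rows (26.9% to 30.8% of read pairs, mostly unmapped) entered neither the library sizes nor the tests. The authors' table of DESeq2 fold changes and p-values was not used, nor were 4 columns of normalised values whose names for the bam mutant libraries (WT, 0 h) did not match the labels.

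Symbols were found for 17253 of 17559 IDs, and coordinates and exon lengths came from Ensembl release 115 (BDGP6, the coordinates of dm6). Of 151 entries in the lists of related genes, 8 were not matched to an ID of the files. Some genes stand in more than one list (nanos, her, upd1 and the yolk protein genes). Counts were filtered with filterByExpr, scaled by TMM and tested with edgeR 4.0.16 (glmQLFit and glmQLFTest, group as the only term, two-sided) in R 4.3.3. Standard errors and intervals were derived from the F statistic. An exact two-sided permutation test of 2 libraries against 2 cannot give a p below 0.333. A count of 3, the limit that a count of 0 allows, corresponds to 0.0997 and 0.103 CPM in the knockdown and to 0.0265 and 0.0322 CPM in the bam mutant, and such limits cover counting error only. The fit was tested on simulated data before use. Alternatives were RLE, upper quartile, library size and germline list scaling, DESeq2 1.42.0, other filters, a replicate block, each library left out, unstranded counts, and binomial thinning of the bam mutant counts to the depth of the knockdown. All 10 genes, Rcd-1, up to 3 called genes of each list by size of change, and msl-2, nanos, Yp1, Yp2 and Yp3 were to be named, and 1 gene of this rule is not reported here. The members and lists were chosen with earlier results of these data known.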

Additional observations from a re-analysis of the deposited data

Results flagged for a closer look

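The value flagged here lies outside the comparison and was not the largest change of its kind. Reads on the strand opposite to ix numbered 18 and 31 in the Caf40 knockdown libraries and 43 and 41 in the bam mutant libraries, or 0.60 and 1.07 CPM against 0.38 and 0.44 CPM. In a separate edgeR quasi-likelihood fit of the opposite-strand counts this was a log2 fold change of 0.98 (adjusted p 0.0283). These reads are few, they were not used in any value of ix above, and no exon of another annotated gene overlaps ix. Opposite-strand reads of snf and Phf7 were called lower in the same fit, by more than those of ix rose and at lower adjusted p. Their log2 fold changes were -1.51 (adjusted p 0.0161) and -1.90 (adjusted p 0.00100), from at most 44 and 109 counts a library. Neither fall was flagged, and the share of all genes called in that fit is not given here.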

How the results depend on the processing

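Under each of the 14 alternatives Sxl, dsx and fru were called lower and otu was called higher. snf, not called under TMM, was called higher with RLE scaling (0.14), upper quartile scaling (0.29), library size alone (0.23), at least 10 counts in every library (0.14) and thinned bam mutant libraries (0.13). Scaling to the germline list gave 706 genes higher and 7205 lower (8.92% of calls higher, against 48.2%) and 1 of the 10 genes higher and 8 lower, with tra at -0.61, tra2 at -0.83, ix at -0.97, snf at -0.54, Phf7 at -0.36 and ovo at 0.24. With no filter beyond 1 count, tra was at -0.084, tra2 at -0.30 and called, snf at -0.0080 and Phf7 at 0.17. Leaving out 1 library at a time gave 1915 to 4042 genes higher, tra from -0.089 to 0.068, tra2 from -0.29 to -0.15, snf from 0.042 to 0.18 and Phf7 from 0.14 to 0.46. tra2 was called lower without knockdown replicate 1 or bam mutant replicate 2, snf was called higher without knockdown replicate 2, and Phf7 was not called without either bam mutant library. The cause of these changes was not tested. The shared replicate numbers come with no stated pairing, and the replicate block gave 6792 genes called, against 6912, and changed no call among the 10 genes (otu 1.35, dsx -1.59). Upper quartile scaling and no filter beyond 1 count shifted the median gene by 0.15 and -0.15. With 2 libraries a genotype, the intervals of ix (-0.73 to 0.13), tra (-0.26 to 0.39) and tra2 (-0.32 to 0.02) include 0, and thinning the bam mutant libraries left 6928 genes called.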
